A study of Homo sapiens with 36 samples.

Results

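A set of 44 genes of the cell cycle and of DNA replication was measured in 4 human prostate cancer (PCa) lines grown alone, beside bone cell lines, or with a bone-resorbing cytokine. The genes were chosen by symbol, and their transcripts, 307 in number, were summed to 1 value per gene and sample. Of the 44 genes, 43 had a row under their symbol among the 27852 genes of the table, and UHRF1 was not analysed here. All 43 had at least 100 counts in at least 1 sample of every fit and were tested.

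The genes follow the order of the cell cycle. Cyclin E and the E2F transcription factors open S phase. CDC6 and CDT1 load the MCM helicase onto replication origins, CDC45 helps to activate it, and PCNA, ribonucleotide reductase (RRM1 and RRM2), thymidylate synthase (TYMS) and thymidine kinase (TK1) serve the moving fork and its supply of nucleotides. Later, MYBL2 and FOXM1 drive transcription of the G2 and mitosis genes, cyclins A and B with CDK1 start mitosis, and the Aurora and PLK1 kinases, the spindle checkpoint and the kinesins carry it through. In tumours these transcripts are read as a measure of proliferation. In a bulk culture, a smaller share of cycling cells and less RNA in each cycling cell cannot be told apart.

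The lines C4-2 and C4-2B were grouped as osteoblastic PCa (BPCa), and DU145 and 22Rv1 as osteolytic PCa (LPCa). Each line was grown as mono-culture (n = 3), beside MG63 cells (n = 2), as mono-culture with 50 ng/mL RANKL (n = 2), and beside RAW264.7 cells with RANKL (n = 2), which gives 36 samples taken on day 5. MG63 is a human osteosarcoma line that serves as an osteoblast, RAW264.7 is a mouse monocyte line that forms osteoclasts, and RANKL is the cytokine that drives this. The 2 cell types of a co-culture grew in adjoining wells that share medium through a filter, in α-MEM. The mono-cultures with RANKL are the controls of the RAW264.7 co-cultures, so both of those groups carry RANKL. Each group is 1 established line. The labels do not say that its samples came from separate cultures. The study states of its bar graphs, some of which plot RNA-seq values of these cultures, that they average independent experiments, but does not say which library came from which. The p-values measure only the spread between these samples, which may be technical.

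Levels are given as CPM, the counts of a gene scaled to the library total. The 12 mono-cultures without RANKL held between 23932472 and 36719047 counts, and the 24 other libraries held between 9593426 and 15418211, so depth and culture cannot be told apart in any comparison with the mono-cultures without RANKL. The lowest counts among the 43 genes were 65 for E2F8, 66 for E2F2 and 78 for CCNE1. Fold changes were taken after TMM scaling, and with library totals alone the median over all genes was shifted by between -0.11 and -0.03 log2 units in the 8 comparisons with mono-culture. Changes below are therefore relative to the bulk of genes, and CPM values can stand lower in a co-culture than the fold change does. Many genes given sample by sample were named for a called change in the same comparison. That their groups do not overlap is partly fixed by this choice, and the share of all genes without overlap was not counted. The 6 prostate luminal markers summed to between 26.6 and 29.2 CPM in DU145 mono-cultures, against 6678 to 8128 CPM in the BPCa lines, while the epithelial markers EPCAM, KRT8, KRT18 and CDH1 were present in every line.

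Markers of the partner cells were summed in the same way. The 11 MG63 and mesenchymal markers summed to 5.44 and 9.44 CPM in C4-2 with MG63, against 6.60 to 7.29 CPM in its mono-cultures. The corresponding sums were 4.54 and 6.06 against 5.90 to 6.16 CPM in C4-2B, 7.37 and 13.8 against 6.60 to 8.69 CPM in DU145, and 25.4 and 27.3 against 19.8 to 23.0 CPM in 22Rv1. POSTN, LUM and PRRX1 were at or under 3 counts in C4-2, C4-2B and DU145 beside MG63. In 22Rv1 both co-cultures lay above the mono-cultures in this sum. Of these 2 cultures of 22Rv1, POSTN was at or under 3 counts in mono-culture and not beside MG63, and COL1A2 and SPARC were so beside MG63 and not in mono-culture. The cut is on raw counts, and the mono-cultures had more libraries and deeper ones, so it does not compare levels between cultures. The 10 macrophage and osteoclast markers were mostly detected, also in mono-culture, and did not stand higher beside RAW264.7. Their sum was 22.7 to 23.3 CPM with RAW264.7 and 23.6 to 25.0 CPM with RANKL alone in C4-2, 23.2 to 23.7 and 23.4 to 23.5 CPM in C4-2B, 63.1 to 67.8 and 65.2 to 67.4 CPM in DU145 and 12.4 to 15.1 and 13.6 to 15.7 CPM in 22Rv1. In DU145 it was 71.3 to 86.1 CPM in mono-culture and 59.8 and 93.1 CPM beside MG63. TYROBP was the 1 gene of the list at or under 3 counts in every group. RAW264.7 is a mouse line and the counts are of human transcripts, so these sums can miss its RNA and do not measure its presence.

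The 43 genes together took between 0.387% and 0.530% of all counts in a sample. In mono-culture, DU145 had the highest mean CPM for 21 of the genes, C4-2 for 11, 22Rv1 for 10 and C4-2B for 1. The ratio of the highest to the lowest line had a median of 1.75 and ranged from 1.23 for RRM2 to 3.63 for E2F2, and it passed 2 for 12 genes. RRM2 was therefore the most even of the genes across the lines. Besides E2F2, the ratio was widest for the mitotic kinase AURKA (3.38), the cytokinesis kinesin KIF20A (3.17), the helicase subunit MCM7 (3.13) and the mitotic kinase CDK1 (2.93).

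By GENCODE 29 on GRCh38, the genes named most often below lie at chr20:33675683-33686404 on the minus strand (E2F1), chr19:29811898-29824308 on the plus strand (CCNE1), chr3:127598223-127622436 on the plus strand (MCM2), chr16:88803213-88809258 on the plus strand (CDT1), chr2:10120698-10131419 on the plus strand (RRM2), chr20:43667019-43716496 on the plus strand (MYBL2), chr10:60778331-60794852 on the plus strand (CDK1), chr15:59105078-59125045 on the plus strand (CCNB2), chr15:69414246-69448427 on the plus strand (KIF23) and chr10:128096659-128126385 on the minus strand (MKI67). The level of each is summed over the transcripts of the whole gene.

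The LPCa lines differed at most of the genes in mono-culture. Against 22Rv1, DU145 had higher levels of all 7 spindle, kinetochore and cytokinesis genes and lower levels of 6 of the 10 licensing and helicase genes. AURKA stood at 137, 140.3 and 137 CPM in DU145 and at 41.6, 40.3 and 40.8 CPM in 22Rv1. KIF20A stood at 147, 147 and 137 CPM in DU145 and 43.3, 45.8 and 46.6 CPM in 22Rv1. For both genes, picked for their large differences between these lines, every DU145 sample lay above every 22Rv1 sample. MCM7 went the other way, with 133, 129 and 131 CPM in DU145 and 424, 395 and 410.3 CPM in 22Rv1. Protein-coding transcripts held only 39.8% of the MCM7 counts over all samples. The clamp PCNA had means of 155 CPM in DU145 and 335 CPM in 22Rv1.

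Tested with the quasi-likelihood test of edgeR over 13437 genes, 23 of the 43 genes (53.5%) were higher in DU145 than in 22Rv1 and 15 (34.9%) were lower, at a Benjamini-Hochberg adjusted p under 0.05. Of all genes, 39.1% were higher and 40.5% lower, so these lines differ at most genes and the count of lower genes lies under that background. All 7 genes of the spindle, kinetochore and cytokinesis group were higher, with a median log2 fold change of 0.82 and KIF20A at 1.68 ± 0.14 (± is the standard error of the fit, adjusted p = 1.2e-08). Of the 10 origin licensing and helicase genes, 6 were lower and 3 higher, with a median of -0.48. Both genes of chromosome structure and proliferation, TOP2A and MKI67, were higher, with a median of 0.91. The other groups were mixed. Of 5 G1/S genes 1 was higher and 3 lower, and of 5 fork genes 2 and 2. Of 7 genes of mitotic entry 4 were higher and 2 lower, and of 5 checkpoint genes 3 and 1. Of the G2/M regulators MYBL2 was higher and FOXM1 lower (-0.51). Besides KIF20A, the largest differences were AURKA at 1.77 ± 0.08 (adjusted p = 4e-12), MYBL2 at 1.503 ± 0.066 (adjusted p = 2.6e-12), E2F2 at -1.84 ± 0.08 (adjusted p = 9.9e-13) and MCM7 at -1.63 ± 0.05 (adjusted p = 3e-14). The median over all genes tested was -0.02 and over the 43 genes 0.26. Among genes outside the 43, of 34 other mitosis genes 21 were higher and 6 lower, led by the spindle protein DLGAP5 at 1.69 ± 0.06 (adjusted p = 1.6e-13), while of 30 other replication genes 3 were higher and 19 lower, among them DNA ligase LIG1 at -1.33 ± 0.08 (adjusted p = 7e-11).

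**Figure D1:**
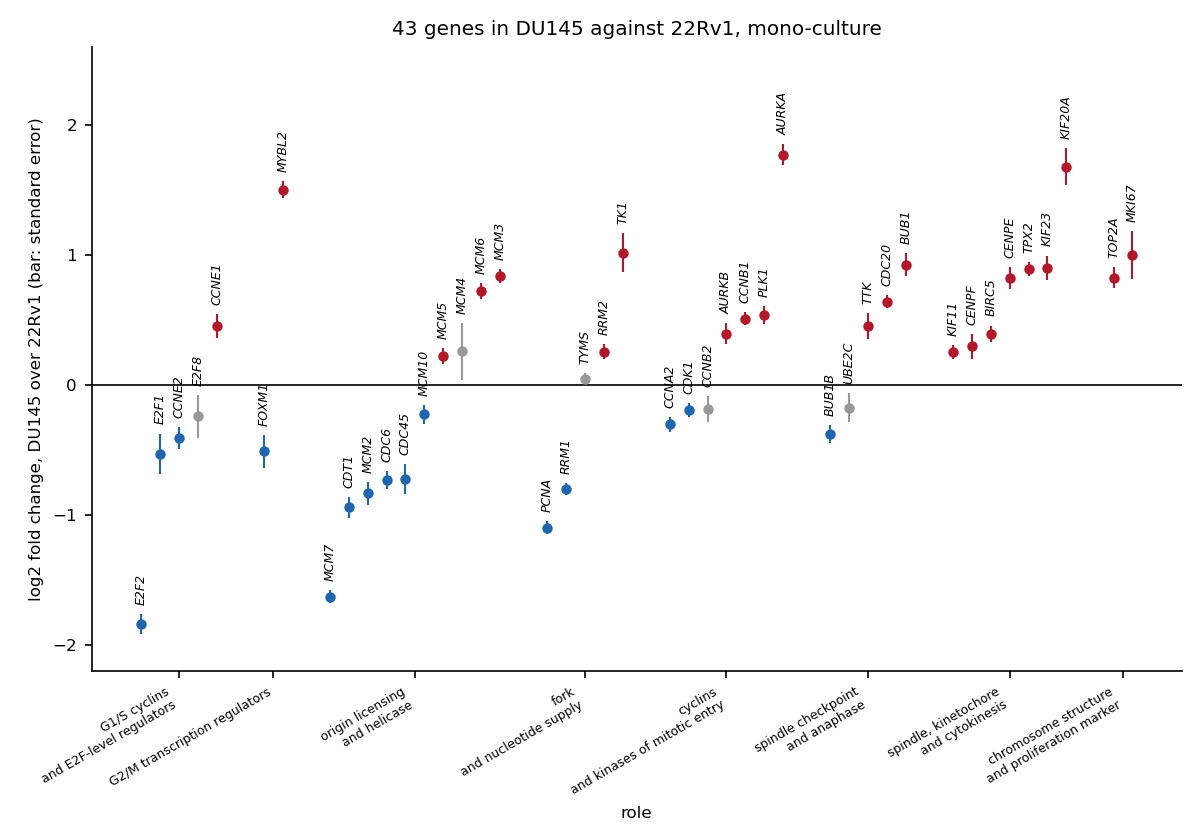
Log2 fold change of each of the 43 genes in DU145 over 22Rv1 mono-cultures (vertical axis, bars are standard errors, n = 3 and 3), grouped by role along the horizontal axis. Red points are called higher in DU145, blue points lower and grey points neither; all 7 spindle, kinetochore and cytokinesis genes lie above 0 and 6 of the 10 origin licensing and helicase genes are blue.

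C4-2 and its bone-derived subline C4-2B differed little. RRM2 was higher in C4-2B by 0.34 ± 0.06 log2 units (adjusted p = 0.00064) and MCM3 by 0.20 ± 0.06 (adjusted p = 0.027), while the kinetochore motor CENPE was at -0.26 ± 0.08 (adjusted p = 0.049) and CDK1 at -0.17 ± 0.05 (adjusted p = 0.037). These 2 higher and 2 lower genes are 4.65% each of the 43, under the background of 7.41% higher and 6.24% lower among all genes. Between both LPCa and both BPCa lines, 18 genes were higher and 18 lower, or 41.9% each, near the background of 40.4% and 39.4%. Leaving out any 1 of the 6 libraries lowered the number called between C4-2B and C4-2 from 4 to 1 or 2. Between LPCa and BPCa the largest differences were CDK1 at -1.40 ± 0.04 (adjusted p = 3.4e-15) and topoisomerase TOP2A at 1.03 ± 0.06 (adjusted p = 7.3e-11). These p-values measure the spread between libraries of a line and not that between lines of a type.

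Promoters of the genes were set beside these groups because E2F sites mark genes of replication and the CHR element marks genes of mitosis. RefSeq windows on GRCh38.p14, from 250 bases before to 50 after a start site, were matched for 33 of the 43 genes (42 windows). Both strands were searched for an E2F site (TTTNNCGC with both N being C or G), a CHR (TTTGAA) and a CCAAT box (CCAAT). An E2F site was in 10 of 24 windows (41.7%) of the genes of G1/S, licensing and the fork and in 2 of 18 (11.1%) of the others, against 3.31% of 35116 windows of all genes. A CHR was in 1 of 24 (4.17%) and 11 of 18 (61.1%), against 15.2% of all windows, and a CCAAT box in 66.7% and 88.9%, against 34.6%. These are matches of letters and not known sites.

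The windows below, cut at 30 bases after the start, show 3 replication genes and 3 mitosis genes that the comparisons of cultures turn on. Capitals mark the matched motifs on either strand. They are E2F1 (chr20:33686356-33686635, minus strand), CDT1 (chr16:88803539-88803818, plus strand), MCM2 (chr3:127598161-127598440, plus strand), CCNB2 (chr15:59104896-59105175, plus strand), KIF23 (chr15:69414099-69414378, plus strand) and MKI67 (chr10:128126394-128126673, minus strand).
E2F1: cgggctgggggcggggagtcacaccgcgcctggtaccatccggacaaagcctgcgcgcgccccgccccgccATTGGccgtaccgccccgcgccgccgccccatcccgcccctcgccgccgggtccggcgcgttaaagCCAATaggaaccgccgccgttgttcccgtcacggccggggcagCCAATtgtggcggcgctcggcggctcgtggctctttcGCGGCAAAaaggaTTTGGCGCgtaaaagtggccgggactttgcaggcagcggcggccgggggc
CDT1: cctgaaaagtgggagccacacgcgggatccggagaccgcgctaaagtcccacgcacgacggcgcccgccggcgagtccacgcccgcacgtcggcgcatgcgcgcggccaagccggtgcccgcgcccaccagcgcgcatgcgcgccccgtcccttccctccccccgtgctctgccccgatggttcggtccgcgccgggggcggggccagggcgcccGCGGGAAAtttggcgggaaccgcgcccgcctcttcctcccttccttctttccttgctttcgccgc
MCM2: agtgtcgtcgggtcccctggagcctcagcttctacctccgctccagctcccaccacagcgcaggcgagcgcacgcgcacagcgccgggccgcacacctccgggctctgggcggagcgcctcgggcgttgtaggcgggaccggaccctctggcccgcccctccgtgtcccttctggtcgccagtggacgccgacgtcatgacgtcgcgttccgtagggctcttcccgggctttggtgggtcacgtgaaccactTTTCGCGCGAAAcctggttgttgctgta
CCNB2: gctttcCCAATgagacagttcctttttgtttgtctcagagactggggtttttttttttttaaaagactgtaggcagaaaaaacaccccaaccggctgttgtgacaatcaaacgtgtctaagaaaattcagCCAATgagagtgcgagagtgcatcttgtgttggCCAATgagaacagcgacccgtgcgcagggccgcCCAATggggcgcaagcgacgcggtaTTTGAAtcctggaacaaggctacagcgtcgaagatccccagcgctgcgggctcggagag
KIF23: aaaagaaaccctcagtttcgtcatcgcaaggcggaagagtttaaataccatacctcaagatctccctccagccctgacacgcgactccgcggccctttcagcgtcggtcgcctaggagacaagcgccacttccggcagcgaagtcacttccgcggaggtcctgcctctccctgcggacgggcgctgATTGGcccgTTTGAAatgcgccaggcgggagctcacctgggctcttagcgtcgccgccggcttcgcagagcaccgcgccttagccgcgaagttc
MKI67: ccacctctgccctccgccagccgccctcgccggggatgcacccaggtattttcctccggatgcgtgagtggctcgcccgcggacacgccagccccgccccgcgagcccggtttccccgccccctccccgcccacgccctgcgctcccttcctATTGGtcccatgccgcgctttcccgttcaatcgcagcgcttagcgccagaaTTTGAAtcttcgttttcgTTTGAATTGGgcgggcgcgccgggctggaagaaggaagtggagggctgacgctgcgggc
E2F1 holds 2 E2F matches, at -33 and -20 from the start, beside 3 CCAAT boxes. CDT1 holds 1 E2F match at -35, and the 2 matches of MCM2 overlap at 3 and 7. CCNB2 holds a CHR at -29 with 4 CCAAT boxes before it, KIF23 a CHR at -55, and MKI67 a CHR at -47 and at -29, the latter overlapping a CCAAT box at -24.

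Adding RANKL to mono-cultures asks what the cytokine does to the cancer cells without an osteoclast precursor. Of the 43 genes, 21 were called higher and 1 lower in DU145 (16.9% and 15.6% of all genes), and 12 higher and 1 lower in 22Rv1 (8.9% and 8.85%). In C4-2 6 were called higher and 1 lower (9.16% and 9.16%), and in C4-2B 5 and 1 (6.07% and 8.32%). The difference between the lines was not tested. The rise in DU145 held genes of every role and was largest for cyclin B2 (CCNB2), the cytokinesis kinesin KIF23 and RRM2. In C4-2, C4-2B and 22Rv1, CDK1 fell.

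In DU145, CCNB2 stood at 85.8, 88.7 and 87.3 CPM in mono-culture and at 127 and 139 CPM with RANKL. KIF23 stood at 73.4, 71.6 and 71.2 CPM and then 107 and 113 CPM. RRM2, the regulated subunit of ribonucleotide reductase, stood at 158, 159 and 142 CPM and then 209.5 and 233 CPM. In all 3 genes, picked for the largest rises in this comparison, the samples with RANKL lay above the mono-cultures. The log2 fold changes were 0.71 ± 0.09 (adjusted p = 6.4e-07) for CCNB2, 0.71 ± 0.08 (adjusted p = 2e-07) for KIF23 and 0.63 ± 0.06 (adjusted p = 3.4e-08) for RRM2 (edgeR quasi-likelihood test over 13454 genes, Benjamini-Hochberg adjusted). UBE2C, the ubiquitin-conjugating enzyme of the anaphase-promoting complex, went from 186, 171 and 177 to 243 and 253 CPM, a change of 0.58 ± 0.11 (adjusted p = 2e-04). The checkpoint kinase BUB1B rose by 0.61 ± 0.07 (adjusted p = 4.2e-07), FOXM1 by 0.46 ± 0.11 (adjusted p = 0.0021) and CDC6 by 0.43 ± 0.07 (adjusted p = 3.4e-05).

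In all, 21 of the 43 genes (48.8%) were called higher with RANKL in DU145 and 1 (2.33%) lower, against 16.9% higher and 15.6% lower of all genes. With library totals in place of TMM scaling the counts were 13 higher and 1 lower, against 11.7% and 23.1% of all genes. The median log2 fold change was 0.20 over the 43 genes and -0.01 over all genes tested. The 4 epithelial markers moved too, from between 1053 and 1082 CPM in sum to between 1780 and 1786 CPM with RANKL, and their part in the result was not tested. By role, 5 of 7 spindle, kinetochore and cytokinesis genes were called higher and 3 of 5 spindle checkpoint and anaphase genes. So were 3 of 7 cyclins and kinases of mitotic entry, 4 of 10 licensing and helicase genes and 1 of 5 genes of the fork and nucleotide supply. Both G2/M regulators and both genes of chromosome structure and proliferation were called higher. Of the 5 G1/S genes 1 was higher and 1 lower, with a median of 0.02. The gene called lower was CCNE2, the second cyclin E, which fell from 37.1, 34.7 and 36.7 to 27.2 and 28.8 CPM, a change of -0.27 ± 0.09 (adjusted p = 0.018) that was lost without 3 of the 5 libraries (adjusted p between 0.056 and 0.14). CCNE1 changed the other way, from 11.7, 11.5 and 11.8 to 15.1 and 15.8 CPM, or 0.50 ± 0.10 (adjusted p = 0.00041). MKI67, the gene of the Ki-67 proliferation marker, stood at 124, 122 and 118 CPM and then 147 and 152 CPM, a change of 0.40 ± 0.15 (adjusted p = 0.047) that passed no adjusted threshold once any 1 of the 5 libraries was left out (adjusted p between 0.07 and 0.18). Cyclin B1 (CCNB1), the main partner of CDK1, stood at 322, 322 and 307 CPM and then 324 and 348 CPM. Its groups did not overlap, but by a small step of 0.19 ± 0.06 (adjusted p = 0.018), which was 0.08 and not called with library totals alone (adjusted p = 0.24) and was lost without mono-culture replicate 3 or RANKL replicate 2.

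In 22Rv1 with RANKL, 12 of the 43 genes (27.9%) were called higher and 1 (2.33%) lower, against 8.9% and 8.85% of all genes, with a median of 0.19 over the 43 genes and -0.01 over all genes. MYBL2 stood at 45.5, 45.3 and 44.6 CPM in mono-culture and 65.3 and 69.8 CPM with RANKL, the largest rise of the 43 at 0.61 ± 0.07 (adjusted p = 9.1e-07). RRM2 went from 131, 128 and 130.0 to 168 and 179 CPM (0.45 ± 0.06, adjusted p = 1.7e-05). TK1 went from 104, 96.8 and 86.9 to 128 and 132 CPM (0.47 ± 0.15, adjusted p = 0.027). In each of the 3 genes, all called higher in this comparison, the RANKL samples lay above every mono-culture. MKI67 went from 61.3, 62.9 and 59.4 to 84.7 and 83.1 CPM, a change of 0.48 ± 0.16 (adjusted p = 0.036) that was again lost without any 1 of the 5 libraries (adjusted p between 0.063 and 0.17). CDT1, MCM5, E2F2, TPX2, BIRC5, AURKA, CENPE and KIF11 completed the genes that rose, between 0.23 and 0.47. No gene of the spindle checkpoint and anaphase group was called, with UBE2C at 206, 198 and 206 and then 198 and 196 CPM. The number called was 8 without RANKL replicate 1, 6 without RANKL replicate 2 and 6 without the filter on low counts. The epithelial markers stood higher here too in sum, from between 672 and 688 CPM to between 862 and 906 CPM, and the luminal markers went from between 965 and 1037 CPM to between 812 and 817 CPM. Their part in the result was not tested.

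In C4-2 with RANKL, CDK1 stood out. It was at 405, 400.3 and 419 CPM in mono-culture, 291 and 291 CPM with RANKL and 280.1 and 286 CPM with RAW264.7 and RANKL, and at 443 and 448 CPM beside MG63. The mono-cultures therefore lay between the MG63 co-cultures above and all 4 samples with RANKL below. The change with RANKL was -0.40 ± 0.05 (adjusted p = 6.7e-06). One coding transcript, ENST00000395284, held 84.5% of the counts of CDK1 over all samples and had a mean of 354 ± 8.09 CPM (SD, n = 3) in C4-2 mono-cultures and of 248 ± 3.93 CPM (SD, n = 2) with RANKL. CDK1 went from 361, 354 and 341 to 302 and 286 CPM in C4-2B (-0.18 ± 0.05, adjusted p = 0.025) and from 158, 162 and 163 to 133 and 148 CPM in 22Rv1 (-0.17 ± 0.05, adjusted p = 0.031). With DESeq2 size factors in edgeR neither of these 2 calls held (-0.15 for each gene, adjusted p = 0.074 and 0.072), and they were lost without 4 and 3 of the 5 libraries. In DU145 the levels were 140.1, 137 and 140.4 and then 142 and 134 CPM and overlapped.

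Counting all genes of the list, 6 (14.0%) were called higher and 1 (2.33%) lower in C4-2 with RANKL, against 9.16% and 9.16% of all genes, with medians of -0.005 and -0.02. With library totals alone the counts were 1 higher and 7 lower, against 6.32% and 16% of all genes under that scaling. In C4-2B 5 (11.6%) were higher and 1 (2.33%) lower, against 6.07% and 8.32%, with medians of 0.03 and -0.02, and with library totals 4 higher and 5 lower (3.73% and 14.6% of all genes). CDT1, MYBL2 and the spindle assembly factor TPX2 were among the higher genes in both lines. E2F1 in C4-2 went from 49.9, 47.9 and 52.5 to 67.6 and 61.5 CPM (0.45 ± 0.16, adjusted p = 0.044), a call lost without any 1 of the 5 libraries. MCM5 in C4-2B went from 95.5, 89.8 and 91.1 to 109.6 and 105 CPM (0.30 ± 0.07, adjusted p = 0.0031). Without RANKL replicate 1 or 2 the number called was 2 or 4 in C4-2 and 3 or 2 in C4-2B. The luminal markers stood lower with RANKL in sum, at 5431 to 5569 CPM against 6678 to 6919 CPM in C4-2 and 4652 to 4716 CPM against 7697 to 8128 CPM in C4-2B, and their part in the result was not tested.

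**Figure D2:**
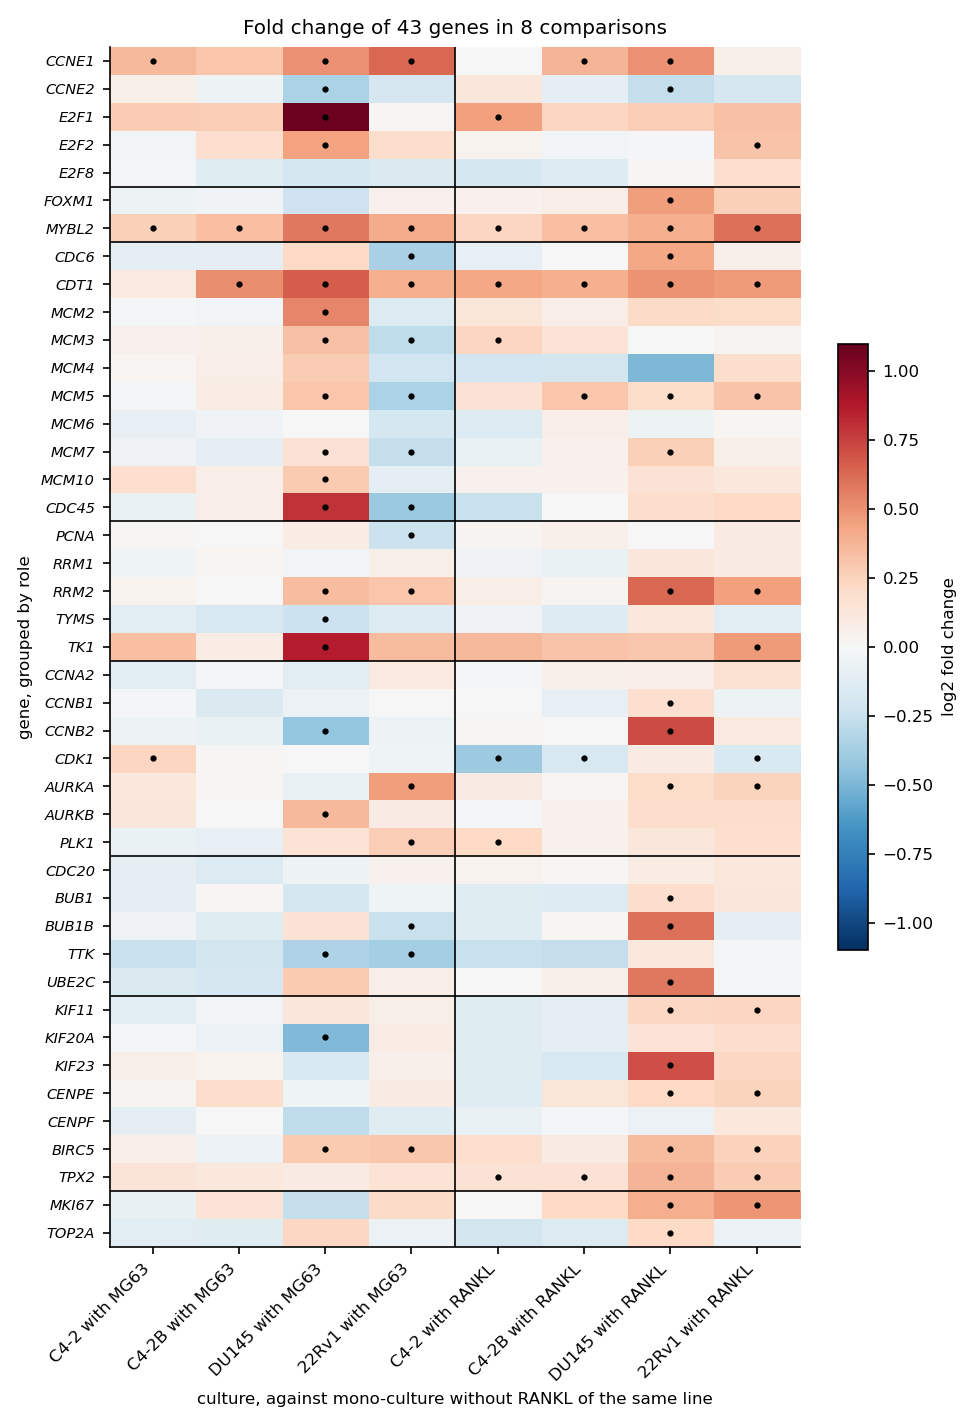
Heat map of the log2 fold change (colour scale) of the 43 genes (rows, grouped by role with lines between the groups) in each line with MG63 (left 4 columns) or with RANKL (right 4 columns) over its mono-cultures without RANKL. A dot marks an adjusted p under 0.05; MYBL2 has a dot in all 8 columns, and the column of DU145 with RANKL holds 21 dots for higher genes and 1 for a lower gene.

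The MG63 comparisons ask what an osteoblast-like neighbour does to the cancer cells. They share their mono-cultures with the RANKL comparisons, so a gene that moved in both is not measured independently there. DU145 beside MG63 had higher levels of genes of G1/S and replication, led by E2F1, TK1 and CDC45. In all, 34.9% of the 43 genes were called higher, against 15.2% of all genes. It had lower levels of 5 genes (11.6%), which lies under the 15.3% of all genes called lower. Its 2 samples differed widely from each other. The study reports that a sample of DU145 beside MG63 fell outside the clusters of its principal component analysis.

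E2F1, the activating factor of S phase entry, stood at 37.8, 38.4 and 40.03 CPM in DU145 mono-cultures and at 50.8 and 106 CPM beside MG63. TK1 stood at 198, 187 and 190.4 CPM and then 227 and 439 CPM. CDC45 stood at 42.02, 44.9 and 46.2 CPM and then 55.8 and 91.3 CPM. In each gene, picked for the largest rises in this comparison, both co-cultures lay above the mono-cultures, with replicate 2 far above replicate 1. The fold changes were 1.08 ± 0.17 (adjusted p = 6e-04) for E2F1, 0.87 ± 0.16 (adjusted p = 0.0016) for TK1 and 0.79 ± 0.13 (adjusted p = 0.00064) for CDC45 (edgeR quasi-likelihood test over 13437 genes, Benjamini-Hochberg adjusted). The helicase subunit MCM2 went from 62.96, 62.5 and 64.6 to 71.7 and 104 CPM (0.54 ± 0.10, adjusted p = 0.0013), and CDT1 from 18.3, 18.9 and 18.8 to 25.8 and 30.6 CPM (0.66 ± 0.09, adjusted p = 0.00021).

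The genes that fell were KIF20A at 147, 147 and 137 and then 125 and 68.9 CPM (-0.49 ± 0.16, adjusted p = 0.028), CCNB2 at 85.8, 88.7 and 87.3 and then 74.5 and 48.4 CPM (-0.43 ± 0.12, adjusted p = 0.013), CCNE2 at 37.1, 34.7 and 36.7 and then 31.4 and 22.2 CPM (-0.35 ± 0.10, adjusted p = 0.019), the checkpoint kinase TTK (-0.34 ± 0.12, adjusted p = 0.038) and TYMS (-0.24 ± 0.05, adjusted p = 0.0034). In KIF20A, CCNB2 and CCNE2 replicate 2 was the farther from the mono-cultures, while the co-cultures of TYMS were alike in sum, at 244 and 245 CPM below mono-cultures at 300.0, 315 and 295 CPM. Its transcripts were not alike: the coding ENST00000323274 had 151 CPM in its lower and 208 CPM in its higher co-culture, and the processed ENST00000581920 had 26.4 and 81.4 CPM in its lower and higher. MKI67 was not called, at 124, 122 and 118 CPM and then 133 and 58.1 CPM, with 1 co-culture above all mono-cultures and the other below them (-0.27 ± 0.21, adjusted p = 0.35). UBE2C stood at 169 and 245 CPM beside MG63 and also split around its mono-cultures.

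In all, 15 of the 43 genes (34.9%) were called higher and 5 (11.6%) lower in DU145 beside MG63, against 15.2% and 15.3% of all genes (30.5% in either direction), with a median of 0.12 over the 43 genes and -0.06 over all genes. This median was 0.05 with library totals, 0.03 without replicate 1 of the co-culture and -0.07 against the mono-cultures with RANKL. With library totals alone 13 were higher and 8 lower, and the shares of all genes were not counted under that scaling. With TMM scaling, of the 10 origin licensing and helicase genes 7 were higher and 0 lower. These numbers depended on single libraries. Without replicate 2 of the co-culture, 14 were higher and 1 (TYMS, -0.24) lower, against 7.05% and 7.85% of all genes, 7 licensing genes were counted higher, E2F1 was at 0.47 ± 0.06 (adjusted p = 0.00013), and KIF20A, CCNB2 and CCNE2 were at -0.12, -0.15 and -0.13 and not called (adjusted p = 0.30, 0.12 and 0.30). The licensing genes called were not all the same: MCM5 (adjusted p = 0.092) and MCM7 (adjusted p = 0.29) were no longer called and CDC6 (0.38) and MCM4 (0.78) were. Without replicate 1, 17 were higher and 13 lower, against 23.5% and 31.4%, with E2F1 at 1.51, MKI67 at -0.997, KIF20A at -0.996 and E2F8 at -0.991. The MG63 markers also differed between the 2 samples, at 7.37 and 13.8 CPM in sum, and so did the 4 epithelial markers, at 868 and 1465 CPM. Their part in the result was not tested.

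**Figure D3:**
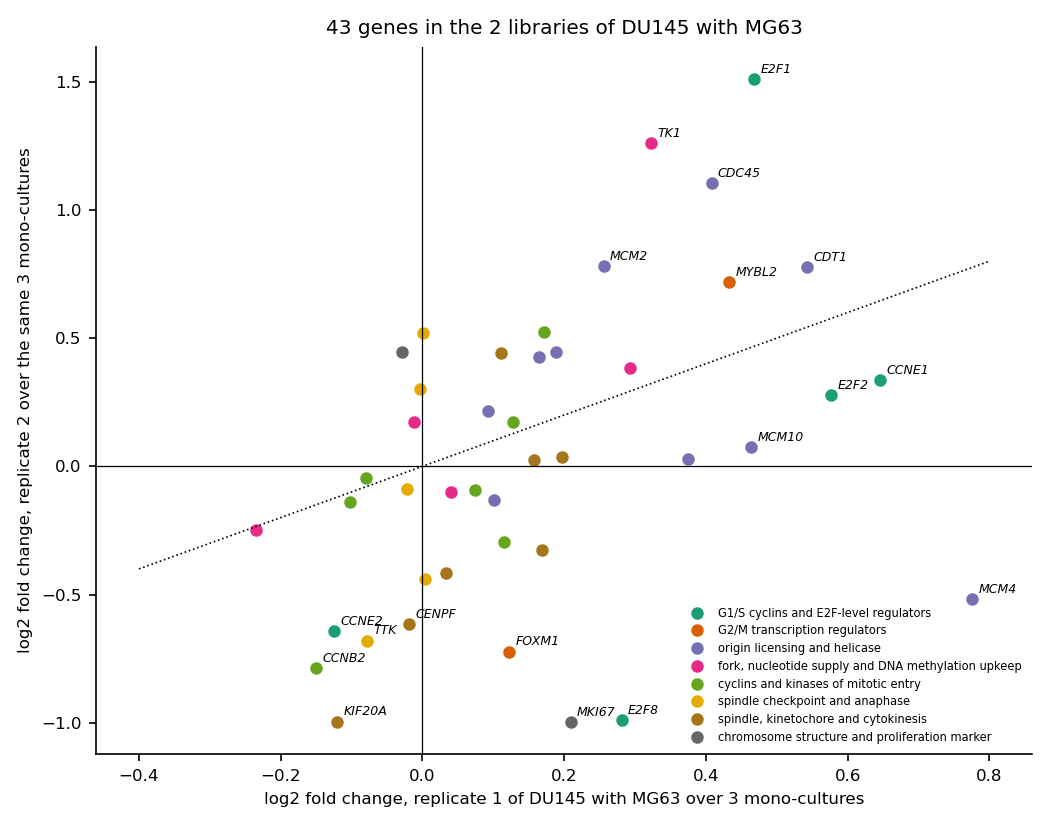
Log2 fold change of the 43 genes in replicate 1 (horizontal axis) and replicate 2 (vertical axis) of DU145 with MG63, each over the same 3 mono-cultures, coloured by role. The dotted line marks equal change; E2F1, TK1 and CDC45 lie above it, and MKI67, KIF20A and E2F8 lie at about -1 on the vertical axis only.

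In 22Rv1 beside MG63 several replication genes fell. The sum of the MG63 markers was higher there than in mono-culture, as given above, and the epithelial markers went from between 672 and 688 CPM to between 911 and 954 CPM in sum. The part of both in the results was not tested. CDC45 stood at 80.3, 68.8 and 73.1 CPM in mono-culture and 54.1 and 49.4 CPM beside MG63. CDC6 stood at 75.8, 73.2 and 80.9 CPM and then 56.8 and 54.4 CPM. MCM5 stood at 103, 100 and 99.7 CPM and then 74.8 and 71.7 CPM. In these 3 genes, all called lower in this comparison, the co-cultures lay below every mono-culture. The changes were -0.41 ± 0.13 (adjusted p = 0.041), -0.36 ± 0.08 (adjusted p = 0.0064) and -0.35 ± 0.07 (adjusted p = 0.0029). MCM3, MCM7 and PCNA fell too, between -0.28 and -0.23, as did the checkpoint kinases TTK (-0.38 ± 0.12, adjusted p = 0.036) and BUB1B (-0.25 ± 0.08, adjusted p = 0.037). The CDC45 and TTK calls were each lost without 4 of the 5 libraries. MCM2 stood at 119, 111 and 114 CPM and then 95.8 and 94.98 CPM and was not called (-0.15 ± 0.10, adjusted p = 0.31).

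Against these, CCNE1 rose from 7.70, 9.52 and 8.65 to 12.4 and 12.4 CPM (0.63 ± 0.11, adjusted p = 0.00094), AURKA from 41.6, 40.3 and 40.8 to 50.2 and 54.3 CPM (0.46 ± 0.09, adjusted p = 0.0019) and MYBL2 from 45.5, 45.3 and 44.6 to 54.1 and 57.1 CPM (0.41 ± 0.07, adjusted p = 0.0011). The co-cultures lay above every mono-culture in all 3, which were picked for the largest rises called in this comparison. CDT1, RRM2, the survivin gene BIRC5 and PLK1 rose between 0.27 and 0.39. In all, 7 of the 43 genes (16.3%) were called higher and 8 (18.6%) lower, against 11.2% and 9.18% of all genes (20.4% in either direction), with medians of 0.01 and 0.001, and with library totals alone the counts were 5 higher and 12 lower (6.75% and 16.9% of all genes). Of the 10 licensing and helicase genes 1 (CDT1) was higher and 5 lower, with a median of -0.23 against 0.30 in DU145, and the difference between the 2 lines was not tested. Without MG63 replicate 1 the number called was 9 and without replicate 2 it was 8. E2F1 stood at 58.6, 56.1 and 55.1 CPM and then 52.5 and 53.03 CPM and was not called.

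In C4-2 beside MG63, 3 of the 43 genes (6.98%) were called higher and 0 lower, against 5.3% and 4.79% of all genes (10.1% in either direction). They were CCNE1, from 17.1, 17.6 and 15.8 to 19.9 and 20.02 CPM (0.36 ± 0.10, adjusted p = 0.038), MYBL2, from 119, 112 and 112 to 126 and 129 CPM (0.27 ± 0.07, adjusted p = 0.027), and CDK1, at the levels given above (0.24 ± 0.06, adjusted p = 0.014). With library totals alone 0 were higher and 6 lower (3.45% and 12.3% of all genes), without the filter on low counts 0 were called, and leaving out single libraries gave between 0 and 1. In C4-2B 2 (4.65%) were higher and 0 lower, against 3.52% and 3.89%. They were CDT1, from 28.2, 28.4 and 31.7 to 41.4 and 38.8 CPM (0.51 ± 0.09, adjusted p = 0.0023), and MYBL2, from 103, 103 and 101 to 128 and 118 CPM (0.34 ± 0.07, adjusted p = 0.0088), and both calls were lost without MG63 replicate 1, which left 0 genes called. With library totals alone 2 were higher and 3 lower in C4-2B (2.51% and 6.79% of all genes). The luminal markers stood lower beside MG63 too, at 5234 to 5352 CPM in C4-2 and 5603 to 5897 CPM in C4-2B, and their part in the result was not tested. For the lower direction, where the edgeR test called 0 in both lines, the medians over the 43 genes were -0.02 and 0, against -0.01 and -0.002 over all genes. Genes named for proliferation did not pass the test in either line: MKI67 stood at 55.2, 53.3 and 52.7 CPM and then 50.9 and 43.2 CPM in C4-2, and at 47.2, 41.7 and 49.7 CPM and then 48.2 and 49.9 CPM in C4-2B.

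The choice of control mattered for the MG63 comparisons. Against the mono-cultures with RANKL, whose depth is in the range of the co-cultures but which carry the cytokine, 8 genes were higher and 14 lower in DU145 (19.4% and 17.1% of all genes), 1 was higher and 10 lower in 22Rv1 (8.02% and 7.26% of all genes), 2 were higher and 2 lower in C4-2 (4.89% and 5.37% of all genes), and 0 were called in C4-2B (7.63% of all genes in either direction). Of the 20 genes called in DU145 against the mono-cultures without RANKL, 11 were called in the same direction with this control and 1, RRM2, in the opposite one, and in 22Rv1 8 of 15 were called in the same direction. E2F1 stayed higher in DU145 (0.86) and CCNE1 in 22Rv1 (0.56), and MCM5 and CDC45 stayed lower in 22Rv1 (-0.67 and -0.63). Among the calls lost were AURKA in 22Rv1 (0.21, adjusted p = 0.12), CCNE2 (-0.05, adjusted p = 0.74) and CCNE1 (0.04, adjusted p = 0.82) in DU145, and CDT1 in DU145 (0.21, adjusted p = 0.12), 22Rv1 (-0.09, adjusted p = 0.61) and C4-2B (0.11, adjusted p = 0.62). MYBL2 turned to -0.21 in 22Rv1 (adjusted p = 0.082) and -0.006 in C4-2B (adjusted p = 0.99), was at 0.02 in C4-2 (adjusted p = 0.92) and was called higher in DU145 (0.23, adjusted p = 0.016). RRM2 turned to -0.25 in DU145 (adjusted p = 0.0077) and -0.15 in 22Rv1 (adjusted p = 0.16).

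The difference between the MG63 effect in the LPCa lines and that in the BPCa lines was tested directly. It was taken as the mean effect in DU145 and 22Rv1 minus the mean in C4-2 and C4-2B. The p-values measure the spread between libraries of a line and not that between lines of a type, and C4-2B is a subline of C4-2. The difference was positive for RRM2, at 0.30 ± 0.06 (adjusted p = 0.0077), for PLK1, a kinase of mitotic entry, at 0.29 ± 0.08 (adjusted p = 0.031), and for BIRC5 (survivin), at 0.28 ± 0.07 (adjusted p = 0.023). RRM2 stood at 158, 159 and 142 CPM in DU145 mono-culture and 178 and 192 CPM beside MG63, and at 131, 128 and 130.0 and 155 and 142 CPM in 22Rv1. In C4-2 it stood at 131, 127 and 134 and then 127 and 122 CPM, and in C4-2B at 166, 149 and 163 and then 153 and 152 CPM. The co-cultures lay above the mono-cultures in the LPCa lines and not above all of them in the BPCa lines. These 3 higher genes are 6.98% of the 43, with 0 lower, against 4.99% and 4.85% of all genes. The number called was 1 without MG63 replicate 2 of 22Rv1, replicate 1 of C4-2 or replicate 2 of C4-2B, 6 without MG63 replicate 2 of DU145 and 25 (12 higher and 13 lower) without its replicate 1, where 20% of all genes were higher and 23.7% lower (43.7% in either direction). Against the mono-cultures with RANKL 1, which was PLK1, was higher and 10 were lower, against 10.6% and 9.83% of all genes (20.4% in either direction). With that control the difference was -0.16 ± 0.07 for RRM2 (adjusted p = 0.12) and 0.15 ± 0.08 for BIRC5 (adjusted p = 0.20), neither called. RRM2 was at -0.25 in DU145 and -0.15 in 22Rv1, below its -0.03 in C4-2 and -0.05 in C4-2B. PLK1 was at 0.07 in DU145 and 0.08 in 22Rv1 against -0.29 in C4-2 and -0.14 in C4-2B, and BIRC5 at -0.02 and 0.04 against -0.12 and -0.16.

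Across the 8 comparisons with mono-culture, MYBL2 was called higher in 8 and CDT1 in 7, the exception being C4-2 beside MG63. TPX2 was called higher with RANKL in all 4 lines and beside MG63 in none. Its fold change beside MG63 was also positive in all 4 lines, and the difference between the cultures was not tested. At the other end, 7 genes were called in none of the 8 and 25 in 1 or 2, among them CCNB1, which stood between 287 and 305 CPM in the mono-cultures of both BPCa lines and was called only in DU145 with RANKL. Few of the genes changed by more than 2-fold. At a fold above 2 with an unadjusted p under 0.05, 1 of the 43 genes passed in DU145 beside MG63, which was E2F1, and 0 passed in the other 7 comparisons. Of all genes, 2.61%, 2.4%, 4.48% and 2.67% passed beside MG63 in C4-2, C4-2B, DU145 and 22Rv1, and 3.05%, 3.21%, 5.83% and 2.98% with RANKL. By this rule 8 of the 43 genes differed between DU145 and 22Rv1 in mono-culture (39.7% of all genes) and 2, CDK1 and TOP2A, between LPCa and BPCa (30% of all genes), with 0 between C4-2B and C4-2 (3.04%) and 0 for the MG63 effect of LPCa minus BPCa (2.68%). With RAW264.7 0 passed in each line, against 0.746%, 0.477%, 0.538% and 0.469% of all genes. CDC20, the activator of the anaphase-promoting complex, was one of the 7 that were never called, with log2 fold changes between -0.15 and 0.11.

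**Figure D4:**
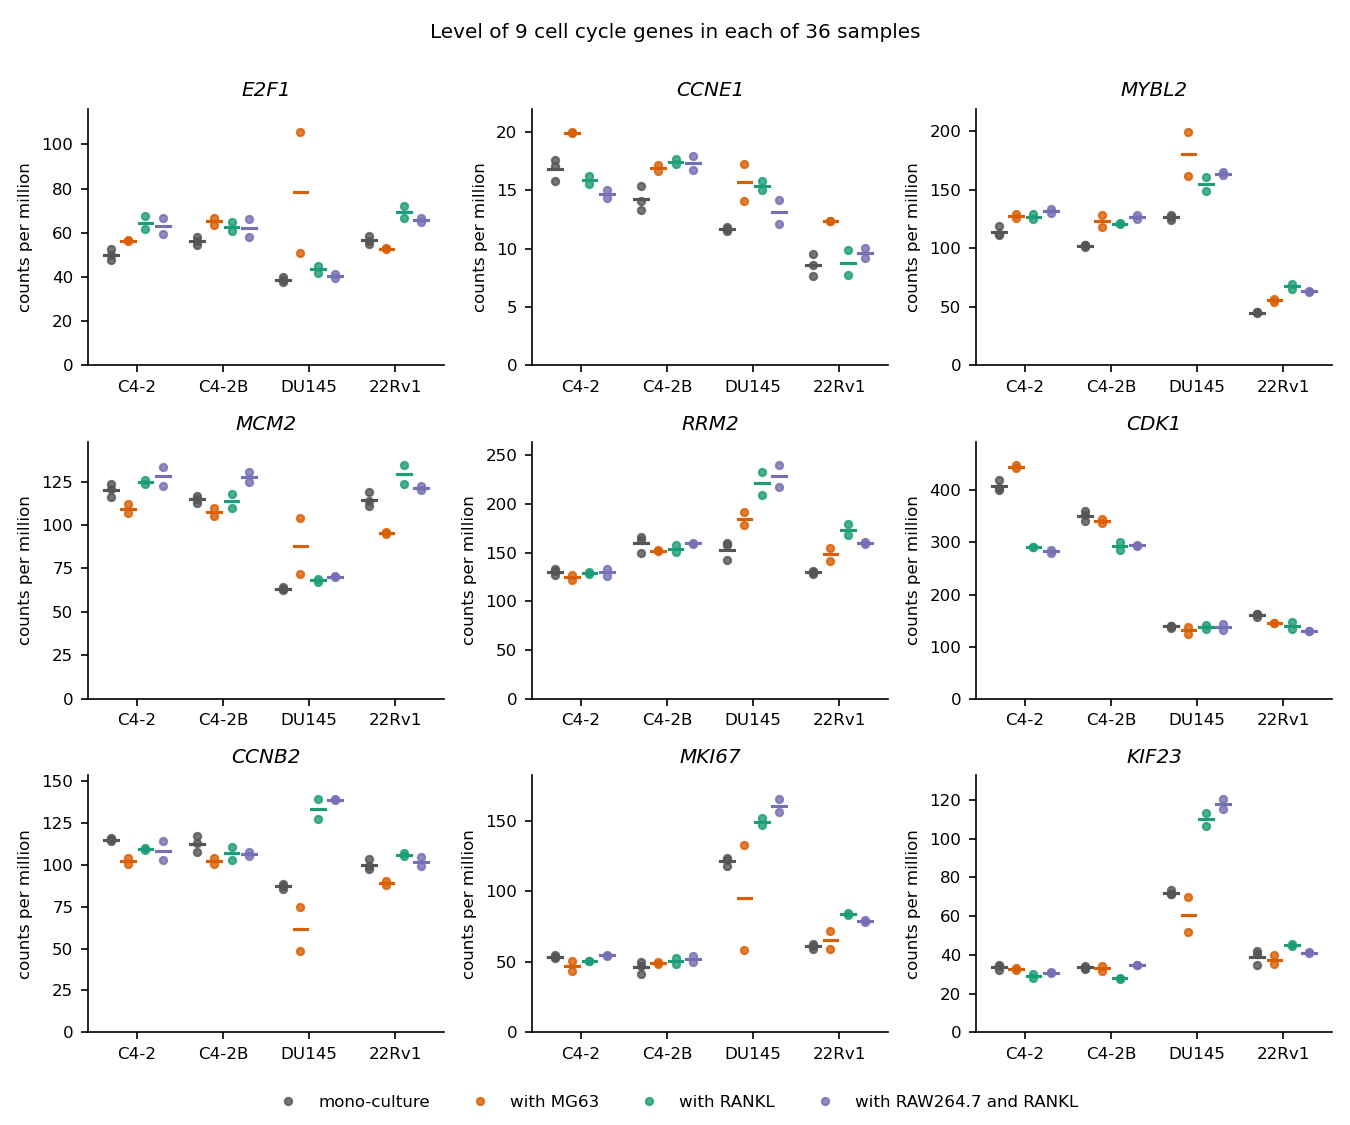
Level of 9 of the genes in CPM (vertical axes from 0) in each of the 36 samples, by line (horizontal axis) and culture (colour). Points are single samples and short lines are group means (n = 3 for mono-culture, n = 2 otherwise); E2F1 in DU145 shows 1 co-culture with MG63 at 106 and the other at 50.8, and CDK1 in C4-2 is lower in all 4 samples with RANKL.

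The GC content of the transcripts moved with these changes. Across the 43 genes, Spearman's rho between the GC content and the log2 fold change with RANKL was 0.64 in C4-2, 0.57 in C4-2B, 0.22 in DU145 and 0.49 in 22Rv1, against 0.10, -0.01, 0.08 and 0.27 over all genes with a known GC content. Beside MG63 it was 0.28, 0.25, 0.59 and 0.22, against 0.05, 0.03, 0.36 and 0.37. Genes are not independent replicates and the points share their libraries, so these are descriptions. CDT1 (65.1%), E2F1 (62.5%), TK1 (61.6%) and MYBL2 (59.9%), which include the 2 genes called higher most often, were the richest in GC, and CENPE (35.3%), CDK1 (35.4%), TTK (36.7%) and CCNE2 (37.2%) were the poorest. Of these, TTK and CCNE2 were called lower in 2 comparisons each, CDK1 lower in 3 and higher in 1, and CENPE higher in 2. The part of GC content in the results was not tested.

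Transcripts without a coding sequence entered some of the sums. Protein-coding transcripts held a median of 95% of the counts of a gene, but 28.9% for MCM4, 39.8% for MCM7, 70.3% for TYMS and 79.0% for AURKB. For TYMS, ENST00000581920, a processed transcript with 24.2% of the counts, had a mean of 57.3 ± 16.2 CPM (SD, n = 3) in DU145 mono-cultures and of 15.0 ± 4.67 CPM (SD, n = 2) with RANKL, while the coding ENST00000323274 went from 232.5 ± 10.6 to 280.3 ± 9.59 CPM. With coding transcripts only, an alternative chosen after the data were seen, TYMS was called higher with RANKL in DU145 at 0.31 ± 0.08 (adjusted p = 0.0031), where the sum over all transcripts gave 0.12 ± 0.05 (adjusted p = 0.091).

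RAW264.7 cells beside the cancer cells, compared with RANKL alone, tested what osteoclast precursors add. The levels of the named genes stayed near those of the RANKL cultures. CCNB2 in DU145 stood at 127 and 139 CPM with RANKL and 139 and 139 CPM with both, and KIF23 stood at 107 and 113 and 115 and 121 CPM. MYBL2 in 22Rv1 stood at 65.3 and 69.8 and 62.7 and 63.9 CPM. The samples with RAW264.7 thus lay close to those with RANKL alone. The edgeR test called 0 of the 43 genes in each line, against 0.0174%, 0.139%, 0.026% and 0.00868% of the 11525 genes tested in C4-2, C4-2B, DU145 and 22Rv1. In C4-2B 0.0694% of all genes were higher and 0.0694% lower. At an unadjusted p under 0.05 there were 2, 2, 0 and 2 genes, or 4.65% in the 3 lines that had any, against 6.61%, 6.39%, 6.39% and 6.26% of all genes. DESeq2 also called 0 in each line after adjustment and 1, 2, 0 and 1 before. The largest change was KIF23 in C4-2B, at 0.32 (adjusted p = 0.098), from 28.2 and 27.8 to 34.8 and 34.9 CPM.

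Genes around the list were read from 5 further lists. The CDK inhibitor CDKN1A (p21) rose in C4-2 with RANKL by 0.68 ± 0.07 (adjusted p = 4.5e-07) and beside MG63 by 0.35 ± 0.08 (adjusted p = 0.0062), and fell in 22Rv1 with RANKL by 0.33 ± 0.08 (adjusted p = 0.0029) and beside MG63 by 0.36 ± 0.08 (adjusted p = 0.0031). CDKN1B (p27) rose in 22Rv1 in both, by 0.53 ± 0.06 (adjusted p = 1.1e-06) and 0.50 ± 0.06 (adjusted p = 2.5e-05). Of the 10 CDK inhibitors and pocket proteins, 3 were higher and 0 lower in C4-2 with RANKL (9.16% and 9.16% of all genes), 1 higher and 2 lower in DU145 (16.9% and 15.6%), 1 higher and 1 lower in 22Rv1 (8.9% and 8.85%) and 0 higher and 1 lower in C4-2B (6.07% and 8.32%). Beside MG63, 1 was higher and 0 lower in C4-2 (5.3% and 4.79%), 0 and 2 in DU145 (15.2% and 15.3%), 3 and 1 in 22Rv1 (11.2% and 9.18%) and 0 and 1 in C4-2B (3.52% and 3.89%). Among 5 G1 cyclins and kinases tested, 3 were higher and 2 lower in DU145 with RANKL (16.9% and 15.6% of all genes), and the G1 kinase CDK6 had the largest change at 1.94 ± 0.18 (adjusted p = 1.1e-08). In 22Rv1 beside MG63 1 of the 5 was higher and 3 lower (11.2% and 9.18%), with a median of -0.29, and in each of the other 6 comparisons 0 to 1 were higher and 0 to 1 lower.

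Other replication and mitosis genes were counted in the same way. Of 30 other replication genes, 10 were higher and 0 lower in DU145 with RANKL (16.9% and 15.6% of all genes), 5 and 0 in 22Rv1 (8.9% and 8.85%), 2 and 1 in C4-2 (9.16% and 9.16%) and 5 and 3 in C4-2B (6.07% and 8.32%). In DU145 the fork protection gene TIPIN was at 0.96 ± 0.08 (adjusted p = 1.8e-09) and DBF4, the partner of the origin-firing kinase, at 0.88 ± 0.10 (adjusted p = 1.2e-07). Beside MG63, 12 were higher and 0 lower in DU145 (15.2% and 15.3% of all genes), with the flap endonuclease FEN1 at 0.84 ± 0.17 (adjusted p = 0.0024) and the chromatin assembly factor CHAF1A at 0.75 ± 0.13 (adjusted p = 0.00082), and 1 higher and 4 lower in 22Rv1 (11.2% and 9.18% of all genes), with polymerase genes POLE at -0.30 ± 0.08 (adjusted p = 0.019) and POLA1 at -0.34 ± 0.09 (adjusted p = 0.017). In C4-2 beside MG63 2 were higher and 1 lower (5.3% and 4.79%), and in C4-2B 3 and 1 (3.52% and 3.89%). Of 34 other mitosis genes, 10 were higher and 1 lower in DU145 with RANKL (16.9% and 15.6%), with PRC1, a midzone protein of cytokinesis, at 0.88 ± 0.11 (adjusted p = 6.4e-07) and HMMR at 0.75 ± 0.07 (adjusted p = 1e-08). Of the same 34 genes, 9 were higher and 1 lower in 22Rv1 with RANKL (8.9% and 8.85% of all genes), 4 were higher and 7 lower in DU145 beside MG63 (15.2% and 15.3%), and 3 were higher and 5 lower in 22Rv1 beside MG63 (11.2% and 9.18%). In the BPCa lines 0 to 2 of the 34 were higher and 1 to 2 lower in each of the 4 comparisons, against 3.52% to 9.16% of all genes higher and 3.89% to 9.16% lower.

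Of the 9 p53 target genes, 0 were higher and 4 lower in 22Rv1 with RANKL (8.9% and 8.85% of all genes), with a median of -0.42. They were ZMAT3 (-0.65 ± 0.16, adjusted p = 0.0053), BTG2 (-0.60 ± 0.09, adjusted p = 4.6e-05), SESN1 (-0.58 ± 0.13, adjusted p = 0.002) and the apoptosis gene BAX (-0.46 ± 0.08, adjusted p = 0.00022). In C4-2 beside MG63, BTG2 (0.71 ± 0.07, adjusted p = 6e-06) and FAS (0.79 ± 0.20, adjusted p = 0.02) rose and 0 fell (5.3% and 4.79% of all genes). In C4-2B with RANKL 0 were higher and 3 lower (6.07% and 8.32%), with GDF15 at -1.19 ± 0.15 (adjusted p = 3.6e-06), and in C4-2 (9.16% and 9.16%) and DU145 (16.9% and 15.6%) with RANKL 0 were higher and 1 lower. Beside MG63, 3 were higher and 2 lower in DU145 (15.2% and 15.3%), with MDM2 at 0.98 ± 0.24 (adjusted p = 0.0068) and SESN1 at -1.07 ± 0.19 (adjusted p = 0.00099), and 1 was higher and 2 lower in both C4-2B (3.52% and 3.89%) and 22Rv1 (11.2% and 9.18%). CDKN1A is also a p53 target but was counted with the CDK inhibitors.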

How the data were processed

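RNA of 36 cultures was sequenced as strand-specific polyA libraries. The deposited table holds estimated counts per transcript, which the authors made with kallisto after FastQC. Per the labels the build is hg19. The samples were grouped by the labels into 4 lines and 4 cultures. Each of 159837 transcripts was taken once, since 2491 of 161149 lines were repeats with identical values, and estimated counts were summed per symbol to 27852 genes and rounded. A further 6878 transcripts have no symbol; their share of a library was 0.526% to 0.764%, and they count in its total only. Only 1.72% of values were whole (tolerance 0.001).

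Every gene that reached 100 counts in any sample of a fit was tested with the quasi-likelihood test of edgeR 4.0.16 (R 4.3.3, TMM, 1 mean per line and culture), with Benjamini-Hochberg adjustment over all genes tested and calls at an adjusted p under 0.05. The fits held the 20 samples without RANKL (13437 genes), the 16 with RANKL (11525 genes) or, for RANKL against mono-culture, all 36 (13454 genes). The scripts were tested on simulated data. The alternatives were DESeq2 1.42.0, DESeq2 size factors, library totals only, no filter, a replicate block, another control, a fold threshold, leaving out each library (56 fits) and 1 added after the data were seen, protein-coding transcripts only. The 43 genes named are all members with a row, and the genes and lists were chosen with earlier results of these data known. Depth was between 9593426 and 36719047 counts per sample.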

Additional observations from a re-analysis of the deposited data

Results flagged for a closer look

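3 genes differed in their mean response to MG63 between the LPCa and BPCa lines, by a test of the difference itself (edgeR quasi-likelihood test, Benjamini-Hochberg adjusted over 13437 genes). Its p-values measure the spread between libraries of a line and not that between lines of a type, and C4-2B is a subline of C4-2. RRM2 differed by 0.304 on the log2 scale, PLK1 by 0.289 and BIRC5 by 0.283. They are 6.98% of the 43 genes, each with the larger effect in the LPCa lines, against 4.99% of all genes, so the count lies near the background. RRM2 was at 0.34 in DU145 and 0.30 in 22Rv1, against 0.04 in C4-2 and -0.007 in C4-2B. Against mono-cultures with RANKL the difference for RRM2 was -0.16 and not called (adjusted p = 0.12), with RRM2 at -0.25 in DU145 and -0.15 in 22Rv1, -0.03 in C4-2 and -0.05 in C4-2B. The number of genes called was 1 without MG63 replicate 2 of 22Rv1, replicate 1 of C4-2 or replicate 2 of C4-2B, and 25 without MG63 replicate 1 of DU145, where 43.7% of all genes were called.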

How the results depend on the processing

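Of 42 results for single genes, 17 kept their call under every alternative run for single genes (the fold threshold and coding transcripts only were not among them), 23 lost it at least once and 4 turned direction (2 of these 4 also lost it under another alternative), all 4 against mono-cultures with RANKL: MYBL2 in 22Rv1 (-0.205) and C4-2B (-0.006), and RRM2 in 22Rv1 (-0.153) and DU145 (-0.25) beside MG63. With that control the median over the 43 genes was -0.165 in 22Rv1 and -0.071 in DU145 beside MG63 and -0.06 for LPCa minus BPCa, and the number called was 0 in C4-2B and 11 for LPCa minus BPCa. The cause of these shifts was not tested.

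With library totals only, the medians were -0.128 in C4-2 and 0.049 in DU145 beside MG63, -0.09, -0.05, 0.096 and 0.158 in C4-2, C4-2B, DU145 and 22Rv1 with RANKL, -0.088 in 22Rv1 with RAW264.7 and 0.07 for LPCa against BPCa, and 6, 5 and 14 genes were called in C4-2 and C4-2B beside MG63 and DU145 with RANKL. Without the filter the medians were -0.081 in C4-2 beside MG63, -0.054 and 0.134 in C4-2 and 22Rv1 with RANKL, 0.224 for DU145 against 22Rv1 and -0.055 for LPCa against BPCa, and 0, 2 and 6 genes were called in the first 3 and 1 for C4-2B against C4-2. At a fold above 2 with an unadjusted p under 0.05, 8 genes passed for DU145 against 22Rv1, 2 for LPCa against BPCa, 1 in DU145 beside MG63 and 0 in the other comparisons. DESeq2 called 5 genes for LPCa minus BPCa, the fit of all 36 samples 8, and coding transcripts only called 2 for C4-2B against C4-2.

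The replicate numbers did not pair the samples (mean correlations of -0.033, 0.019 and 0.018). With a replicate block 1 gene was called in C4-2 beside MG63 and 2 for C4-2B against C4-2, and 6 of the 42 gene calls were lost.

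Leaving out single libraries gave numbers called of 0 to 1 in C4-2, 0 to 2 in C4-2B, 15 to 30 in DU145 and 8 to 14 in 22Rv1 beside MG63, 2 to 5, 2 to 5, 15 to 18 and 6 to 10 in the same order with RANKL, 0 to 0 in each line with RAW264.7, 1 to 2 for C4-2B against C4-2, 38 to 38 for DU145 against 22Rv1, 33 to 35 for LPCa against BPCa and 1 to 25 for LPCa minus BPCa. The medians ran from -0.039 to 0.008, -0.034 to 0.006, 0.03 to 0.13 and -0.039 to 0.003 beside MG63, -0.022 to 0.007, 0.029 to 0.036, 0.172 to 0.212 and 0.141 to 0.175 with RANKL, 0.034 to 0.069, 0.049 to 0.074, -0.027 to 0.071 and -0.075 to -0.037 with RAW264.7, -0.05 to -0.029 for C4-2B against C4-2, 0.228 to 0.288 for DU145 against 22Rv1, -0.002 to 0.021 for LPCa against BPCa and -0.009 to 0.061 for LPCa minus BPCa. Where this left 1 sample in a group, it is assumed to vary like the other groups. E2F8, E2F2 and CCNE1 had the fewest counts, which limits their precision.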
